A study of Mus musculus with 3 samples.

Results

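Oligodendrocyte precursor-like (OPC-like) cells were 653 of the 9145 cells kept from a mouse neurosphere culture, 7.14% of that library (exact 95% interval 6.62 to 7.69). The whole series held 33927 kept cells. They were chosen by transcript counts. A cell had at least 2 unique molecular identifiers (UMIs, the count of distinct captured transcripts) summed over Pdgfra, Lhfpl3, Olig2 and Sox10, and 0 UMIs of Hes5. It also had at most 1 UMI over 8 division genes, which were Top2a, Cenpf, Ube2c, Birc5, Ccnb2, Hmmr, Cdca8 and Ckap2l. These 13 genes chose the cells, so their own levels are given as a description only. Of 16 further precursor genes measured, 8 were higher than in NSC cells of like depth without the markers, where 0.726% of all measured genes were higher. In the 165 cells that held Olig2 and no other marker, 3 of the 16 were higher, against 1.45% of all measured genes, so the name rests less firmly on these cells.

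The series holds 3 single-cell libraries made with the 10x droplet method from methanol-fixed mouse cells, with 1 library for each group. NSC are neural stem cells taken from C57BL/6 cortex at embryonic day 14.5 and grown as floating neurospheres in Neurobasal with B27, EGF and FGF2, each growth factor at 20 ng/mL, for no more than the first 3 passages. MIM-Astrocytes are astrocytes moved from serum medium to a serum-free medium with FGF2 and up to 6 metabolites, namely putrescine, cysteine, glycine, threonine, methionine and S-adenosylmethionine, for at most 5 days. Astrocyte is the culture left in medium with 10% serum. The labels do not state which metabolites and which day apply to this library. They give embryonic day 14.5 for both astrocyte groups, while the protocol describes a postnatal or a neurosphere source. Cells of 1 library are not replicates, so no test compares groups here. Intervals are exact 95% intervals for counting error alone and leave out any variation between cultures.

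Oligodendrocyte precursors are glial progenitors that make the myelinating cells of the brain. They are recognised by PDGF receptor alpha, whose ligand keeps them dividing and immature, by the transcription factors Olig1, Olig2 and Sox10, and by the proteoglycan NG2, the product of Cspg4. Neural progenitors of the embryonic cortex give rise to neurons, astrocytes and oligodendrocytes, and Notch signalling through Hes genes holds them in the progenitor state. Growth in FGF2 is known to raise Olig2 in cortical progenitors, so Olig2 is less restricted to this lineage than Sox10 or Pdgfra.

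Before filtering the libraries held 14696853 UMIs in 9157 barcodes (NSC), 50915129 in 14977 (MIM-Astrocytes) and 50598967 in 9825 (Astrocyte). Kept cells had medians of 1379, 3156 and 5089 UMIs in the same order. NSC shared 32 barcodes with MIM-Astrocytes and 25 with Astrocyte. Scrublet, a doublet caller, called 0 of 9145 NSC cells, so it gave no usable call and doublets were kept. Of the OPC-like cells, 10.3% were among the 8% of NSC cells with the highest doublet scores, against 10.96% of the comparison cells described next.

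Each OPC-like cell was set against 2 NSC cells with 0 UMIs of the 4 marker genes and a like number of UMIs, here called matched cells (1296 cells). The median depth was 1550 UMIs in OPC-like cells and 1558.5 in matched cells, with 699 and 719.5 genes detected. A stricter set, called screened cells (644 cells, median 1546.5 UMIs), also had 0 UMIs of Hes5 and at most 1 division UMI, as the OPC-like cells did. Malat1, a nuclear noncoding RNA, took 30.3% of UMIs in OPC-like cells, 26.2% in matched cells and 27.9% in screened cells. Mitochondrial genes took 1.33%, 1.44% and 1.44%, and ribosomal protein genes 11.9%, 11.6% and 11.5%. The part of the Malat1 share in the differences below was not tested, beyond the counts given without Malat1.

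Olig2 was held by 441 of the 653 OPC-like cells (67.5%, 63.8 to 71.1) and Lhfpl3, a tetraspan membrane protein gene typical of this lineage, by 414 (63.4%, 59.6 to 67.1). Pdgfra was held by 134 cells (20.5%, 17.5 to 23.8) and Sox10 by 107 (16.4%, 13.6 to 19.5). A single marker gene was held by 279 cells, 2 by 308, 3 by 63 and all 4 by 3 cells. The commonest sets were Lhfpl3 with Olig2 in 174 cells, Olig2 alone in 165 and Lhfpl3 alone in 102. Most cells stood near the threshold, since 399 had exactly 2 marker UMIs, 147 had 3, 66 had 4 and 41 had 5 or more, up to 11. Of the 779 cells with at least 2 marker UMIs, 88 were left out for Hes5 and another 38 for division genes alone.

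The 4 marker genes map to chr5:75152292-75198215 (Pdgfra), chr5:22746059-23275597 (Lhfpl3), chr16:91225457-91228677 (Olig2) and chr15:79154908-79165240 (Sox10) in GENCODE vM21 coordinates of GRCm38, the build behind the mm10 reference that the submitters' notes name. The start regions of 3 of them, 250 bases before to 50 after the start in RefSeq's GRCm38.p6 table, are shown because these transcripts define the cells. Capitals mark CAGCTG, an E-box of the kind that OLIG factors bind; ACAAAG, the core of many SOX sites, was searched on both strands too and is not in these windows.
Pdgfra, chr5:75152001-75152300, plus strand: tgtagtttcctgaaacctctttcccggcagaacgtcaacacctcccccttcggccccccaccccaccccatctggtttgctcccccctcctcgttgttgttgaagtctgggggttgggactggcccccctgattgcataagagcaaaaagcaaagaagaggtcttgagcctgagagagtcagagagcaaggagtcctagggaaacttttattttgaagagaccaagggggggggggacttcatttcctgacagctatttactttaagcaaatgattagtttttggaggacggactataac
Lhfpl3, chr5:22745804-22746103, plus strand: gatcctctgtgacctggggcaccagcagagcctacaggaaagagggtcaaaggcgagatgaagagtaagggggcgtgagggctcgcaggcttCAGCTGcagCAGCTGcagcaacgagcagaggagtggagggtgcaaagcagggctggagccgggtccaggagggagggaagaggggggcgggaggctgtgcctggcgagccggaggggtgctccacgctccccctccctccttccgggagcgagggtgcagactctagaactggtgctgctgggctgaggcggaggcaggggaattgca
Olig2, chr16:91225300-91225599, plus strand: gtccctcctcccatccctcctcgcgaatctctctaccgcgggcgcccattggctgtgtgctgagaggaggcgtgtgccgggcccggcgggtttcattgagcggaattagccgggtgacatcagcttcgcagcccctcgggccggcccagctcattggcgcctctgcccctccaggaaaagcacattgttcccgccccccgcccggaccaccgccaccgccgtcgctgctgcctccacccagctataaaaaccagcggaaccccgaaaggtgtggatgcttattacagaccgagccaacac
CAGCTG occurs 2 times in the Lhfpl3 window and is in 16.1% of 27025 promoters of this length, and ACAAAG in 18.7%. CAGCTG was in 4 of 9 windows of the genes named below as higher in OPC-like cells and 1 of 10 windows of those named as lower, and ACAAAG in 2 of 9 and 3 of 10. A match is a description of these letters and not a binding site.

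The marker genes were found together in the same cells more often than in cells of like depth. This was counted over all kept NSC cells, holders of 1 marker against cells of like depth without it, with no other condition. Lhfpl3 was found in 43.1% of 246 Pdgfra-holding cells (36.8 to 49.5), against 8.94% (5.69 to 13.2) of matched cells without Pdgfra. Sox10 was found in 13.01% (9.07 to 17.9) of Pdgfra-holding cells, against 1.63% (0.445 to 4.11). Olig2 was found in 30.5% (24.8 to 36.7) of Pdgfra-holding cells, against 21.1% (16.2 to 26.8), and these intervals overlap. Apoe, an apolipoprotein gene of astrocytes and radial glia, was found in 47.6% (41.2 to 54.0) of Pdgfra-holding cells, against 89.0% (84.4 to 92.6). In Olig2-holding cells it was found in 72.7% (70.4 to 74.996), against 85.8% (83.9 to 87.6). Hes5, a Notch effector gene, was held by 11.3% (9.16 to 13.7) of all 779 cells with at least 2 marker UMIs, against 28.6% (25.3 to 31.9) of 753 depth-matched cells without marker UMIs. At least 2 division UMIs were found in 9.24% (7.30 to 11.5) of the 779 cells, against 13.4% (11.1 to 16.1).

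Against matched cells, OPC-like cells had higher levels of precursor genes and lower levels of genes of astrocytes and radial glia. Levels are in CPM, UMIs scaled to the same total in each group. The size rule for a call was a log2 ratio of 1 or more either way, with 10 CPM added to both levels, and a level of 50 CPM or more in at least one of the groups. By this rule 27 of 2604 genes were higher (1.04%) and 97 were lower (3.73%), and against screened cells 27 of 2611 were higher (1.03%) and 82 lower (3.14%). These counts leave out the 13 genes of the rule, since the choice of cells fixes their levels. With Malat1 left out of the totals, 54 of 3387 genes were higher and 104 lower, at a median log2 ratio of 0.10. More genes then reached 50 CPM. The higher share of calls was 34.2%, against 21.8% with all genes in the totals. Leaving out the rule's own genes and the kinds of genes listed under processing, 13 genes were higher and 70 lower against both sets of comparison cells. All 13 higher genes and the 13 lower genes farthest from 0 are named below.

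Several of the 13 higher genes encode proteins that regulate phosphatases, cell-surface sugars or Notch. Ppp1r14b, a member of the family of protein phosphatase 1 inhibitors, had the most UMIs of them, with 3779 CPM in OPC-like cells, against 1478 CPM in matched cells and 1644 CPM in screened cells. It was 2.56-fold higher (95% interval 2.44 to 2.67) than in matched cells and was found in 95.6% of OPC-like cells and 74.8% of matched cells. It lies at chr19:6974968-6977324. Ppp1r16b, which encodes a phosphatase 1 regulatory subunit, had 196 CPM in OPC-like cells, against 52.9 CPM in matched cells, 3.70-fold higher (95% interval 2.96 to 4.64). Sox6 (chr7:115470872-116038796), a transcription factor gene whose product keeps precursors immature, had 149 CPM in OPC-like cells, against 47.3 CPM in matched cells, 3.15-fold higher (95% interval 2.47 to 4.03). Cells with a Sox6 UMI were 22.4% of OPC-like cells and 7.95% of matched cells. Dll3, a divergent Delta gene whose product lowers Notch signalling within the cell that makes it, had 77.7 CPM in OPC-like cells, against 24.5 CPM in matched cells, 3.17-fold higher (95% interval 2.26 to 4.49).

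Cspg5 encodes the membrane proteoglycan neuroglycan C and had 219.7 CPM in OPC-like cells, against 95.9 CPM in matched cells, 2.29-fold higher (95% interval 1.91 to 2.75). A pair of genes of glucuronate chemistry, which builds such sugar chains, were also among them. Ugdh, which makes the UDP-glucuronate precursor, had 50.1 CPM in OPC-like cells, against 12.47 CPM in matched cells, and B3gat2, a glucuronyltransferase gene of the HNK-1 carbohydrate, had 67.7 CPM in OPC-like cells, against 15.04 CPM in matched cells. B3gat2 was 4.50-fold higher (95% interval 2.99 to 6.89) and Ugdh 4.02-fold higher (95% interval 2.54 to 6.499). Pcdh11x, an X-linked protocadherin gene, had 165 CPM in OPC-like cells, against 60.2 CPM in matched cells. Calcrl, the receptor gene for adrenomedullin and calcitonin gene-related peptide, had 120.3 CPM in OPC-like cells, against 42.6 CPM in matched cells. The remaining genes were Scg5, a neuroendocrine chaperone gene, Sh3gl3, which encodes endophilin A3, Midn, a gene for a factor that brings proteins to the proteasome, and Fam60a, a Sin3 deacetylase complex gene listed as Sinhcaf in GENCODE vM21. Their levels were 3.38, 3.12, 2.37 and 2.47 times those of matched cells.

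The 13 lower genes were mostly genes known from astrocytes and radial glia. Apoe (chr7:19696109-19699188) had 1577 CPM in OPC-like cells, against 5572 CPM in matched cells and 5170.4 CPM in screened cells, 3.53-fold lower (95% interval 3.37 to 3.71) than in matched cells. An Apoe UMI was found in 51.1% of OPC-like cells and 88.04% of matched cells. The part of free Apoe RNA from other cells in the UMIs of OPC-like cells was not tested. Sparcl1, which encodes the synapse-promoting astrocyte protein hevin, had 84.4 CPM in OPC-like cells, against 549 CPM in matched cells, 6.505-fold lower (95% interval 5.31 to 8.05). Gja1, the gene of the astrocyte gap junction protein connexin 43, had 14.2 CPM in OPC-like cells, against 93.3 CPM in matched cells, 6.57-fold lower (95% interval 4.01 to 11.5). Mt3, a brain metallothionein gene, had 722 CPM in OPC-like cells, against 2639 CPM in matched cells, 3.66-fold lower (95% interval 3.40 to 3.93). S1pr1, a sphingosine 1-phosphate receptor gene, had 9 UMIs in all OPC-like cells, or 7.52 CPM, against 82.96 CPM in matched cells, 11.03-fold lower (95% interval 5.69 to 24.5). Thrsp, a lipid synthesis regulator gene, had 10 UMIs and was 10.1-fold lower (95% interval 5.40 to 21.5).

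Of the other named lower genes, 3 act in transport or at the membrane. Slc4a4, the gene of a sodium bicarbonate cotransporter, had 16.7 CPM in OPC-like cells, against 96.7 CPM in matched cells. Ezr, which encodes the membrane-cytoskeleton linker ezrin, had 31.7 CPM in OPC-like cells, against 152 CPM in matched cells. Sdc4, a syndecan proteoglycan gene, had 20.9 CPM in OPC-like cells, against 91.98 CPM in matched cells. The enzyme genes Car3 (a carbonic anhydrase), Pla2g7 (a phospholipase of platelet-activating factor) and Rnase1 (a secreted ribonuclease), and the kinase gene Bmp2k, were 4.49, 3.41, 5.27 and 4.24 times lower. Intervals of OPC-like and matched cells did not overlap for any of the 26 named genes. These genes were chosen for large ratios in the same cells, so this adds no support.

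**Figure D1:**
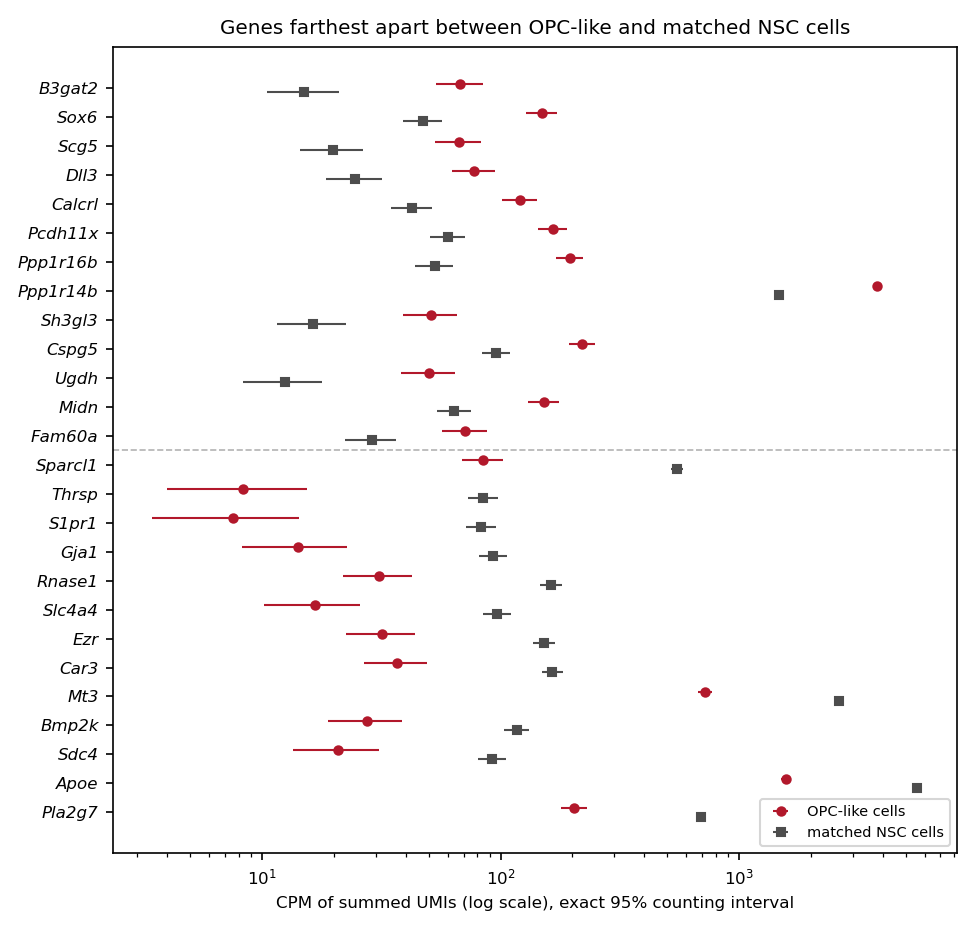
Levels of the 26 named genes in OPC-like cells (red circles) and matched NSC cells (grey squares), as CPM of summed UMIs on a log scale with exact 95% counting intervals. The 13 genes above the dashed line were higher in OPC-like cells, with Ppp1r14b at 3779 CPM, and the 13 below it were lower, with Apoe at 1577 CPM.

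Precursor genes were higher more often than genes at large. A list gene was measured when OPC-like and matched cells together held at least 20 UMIs, and counted by the log2 ratio alone. The 10 CPM added to both levels means that a gene passes only when its own levels differ by more than 2-fold. Over all 8538 such genes 62 were higher (0.726%) and 165 lower (1.93%) against matched cells, and 73 were higher (0.855%) and 137 lower (1.6%) against screened cells. The median log2 ratio of all genes was near 0 in both. Of 16 measured genes in the precursor list, which leaves out the 4 markers, 8 were higher and 1 was lower, and the list's median log2 ratio was 1.01. Against screened cells the counts were 10 and 1, at a median of 1.09. With the level of 50 CPM also required, 2 were higher and 1 lower against either set. Olig1 had 1083 CPM in OPC-like cells, against 465 CPM in matched cells, 2.33-fold higher (95% interval 2.15 to 2.53), and was found in 68.9% of OPC-like cells and 44.4% of matched cells. Against screened cells its log2 ratio was 0.95, just under the size rule. Cspg4, the NG2 gene, had 29.2 CPM in OPC-like cells, against 6.45 CPM in matched cells, and 12.3 CPM in screened cells. Gpr17, a receptor gene of precursors that are about to differentiate, had 27.6 CPM in OPC-like cells, against 3.44 CPM in matched cells. C1ql1, a secreted C1q-like protein gene, had 25.9 CPM in OPC-like cells, against 3.44 CPM in matched cells, and Pcdh15, a protocadherin gene, had 21.7 CPM in OPC-like cells, against 2.15 CPM in matched cells. These low genes rest on few UMIs: Gpr17 had 33 in OPC-like and 8 in matched cells, and Pcdh15 had 26 and 5. Neu4, another precursor marker, had 0 UMIs in both. Ednrb, the endothelin receptor B gene, was the 1 lower gene of the list, with 211 CPM in OPC-like cells, against 551 CPM in matched cells.

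Few genes of maturing oligodendrocytes passed. Of 8 measured genes of differentiating oligodendrocytes only Bcas1 was higher, with 49.3 CPM in OPC-like cells, against 10.7 CPM in matched cells, 4.59-fold higher (95% interval 2.83 to 7.64). Of 14 myelin genes 2 were measured and neither passed in the OPC-like cells as a whole, while both were higher in those that held Olig2 only. The list summed to 251 CPM in OPC-like cells and 173 CPM in matched cells, and a UMI of it was found in 28.3% (24.9 to 31.96) of OPC-like cells and 23.4% (21.1 to 25.8) of matched cells. Cnp, a gene of myelin and its precursors, had 203 CPM in OPC-like cells, against 152 CPM in matched cells. Mog, Mag, Mobp and Opalin had 0 UMIs in both groups, Mbp had 2 UMIs in OPC-like cells and 6 in matched cells, and Myrf, the master gene of myelination, had 2 and 1. Among 9 measured transcription factor genes of the lineage, Olig1 and Sox6 were higher and Prrx1 was lower, and against screened cells Sox6 alone passed. Sox8, a partner of Sox10, had 164 CPM in OPC-like cells, against 89.4 CPM in matched cells, and Nkx2-2 had 16.7 CPM in OPC-like cells, against 9.03 CPM in matched cells.

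Astrocyte genes were lower as a group. Of 19 measured genes 12 were lower and none higher; the median log2 ratio was -1.08. The same counts held against screened cells, at a median of -1.20. Summed over the list the level was 4541 CPM in OPC-like cells, 14504 CPM in matched cells and 13653 CPM in screened cells. Beside Apoe, Mt3 and Gja1, the lower genes included Aldoc, a glycolytic enzyme gene, with 25.1 CPM in OPC-like cells, against 64.05 CPM in matched cells, and the glutamate transporter gene Slc1a2, with 15.9 CPM in OPC-like cells, against 42.6 CPM in matched cells. S100b, which precursors also express, had 31.7 CPM in OPC-like cells, against 26.2 CPM in matched cells. Gfap had 0 UMIs in OPC-like cells and 5 in matched cells. Neural stem and radial glia genes were lower for 5 of 17 measured members and higher for 0, with a median of -0.52, and 3 were lower against screened cells. The glutamate transporter gene Slc1a3 had 165 CPM in OPC-like cells, against 453 CPM in matched cells, and Fabp7, a brain lipid-binding protein gene, had 2083 CPM in OPC-like cells, against 4276 CPM in matched cells but did not pass against screened cells. Sox2, Nes and Vim did not pass, with 207, 99.4 and 375 CPM in OPC-like cells, against 284, 142 and 544 CPM in matched cells. Sox9 had 581 CPM in OPC-like cells, against 379.5 CPM in matched cells.

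Notch pathway genes went in both directions, with 1 of 14 higher and 3 lower against matched and against screened cells. Dll3 was the higher gene, and Dll1, a Delta ligand gene, had 34.3 CPM in OPC-like cells, against 12.9 CPM in matched cells. The receptor gene Notch2 had 219 CPM in OPC-like cells, against 484 CPM in matched cells, the effector gene Hes1 had 31.7 CPM in OPC-like cells, against 100.2 CPM in matched cells, and Lfng, which modifies Notch receptors, had 21.7 CPM in OPC-like cells, against 60.2 CPM in matched cells. Hes5 at 0 UMIs was a condition of the choice, and the Hes1 level in screened cells, which share that condition, was 96.1 CPM. Receptor genes for the growth factors in the medium were lower or did not pass. Fgfr1 had 15.9 CPM in OPC-like cells, against 42.1 CPM in matched cells, and Fgfr3 had 9.19 CPM in OPC-like cells, against 37.8 CPM in matched cells. Both passed against matched cells, as 2 of 6 measured genes of the list, and Fgfr3 alone against screened cells. Egfr had 81.04 CPM in OPC-like cells, against 143 CPM in matched cells, under the size rule. Of 13 FGF and MAPK feedback genes 0 passed against matched cells, and against screened cells Spry1 was higher, with 32.6 CPM in OPC-like cells and 7.93 CPM in screened cells. Spry2, a feedback inhibitor gene, had 1155 CPM in OPC-like cells, against 992 CPM in matched cells. Of the PDGF family outside Pdgfra, the ligand gene Pdgfa had 27.6 CPM in OPC-like cells, against 18.1 CPM in matched cells, and Pdgfrb, the receptor gene of pericytes, had 0 UMIs in both.

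Genes of the surface and matrix were partly higher. Of 10 measured chondroitin sulfate proteoglycan and tenascin genes, Cspg4 and Cspg5 were higher and 0 lower, and Cspg5 alone was higher against screened cells. Vcan, which encodes versican, had 40.1 CPM in OPC-like cells, against 19.8 CPM in matched cells, and Ncan, which encodes neurocan, had 295 CPM in OPC-like cells, against 519.7 CPM in matched cells. Neither passed. Of 17 measured synapse and adhesion genes 2 were higher, Cntn1, a contactin gene, with 21.7 CPM in OPC-like cells, against 5.16 CPM in matched cells, and Dscaml1, a cell adhesion gene, with 28.4 CPM in OPC-like cells, against 8.60 CPM in matched cells. Of 10 glutamate receptor and partner genes 0 passed against matched cells. Gria2, an AMPA receptor subunit gene, had 199 CPM in OPC-like cells, against 105 CPM in matched cells, and Cacng4, which encodes an AMPA receptor auxiliary subunit and reached a log2 ratio of 1.01 against screened cells, had 90.2 CPM in OPC-like cells, against 50.3 CPM in matched cells. Among 5 measured neuron genes Tubb3, a neuronal tubulin gene, was higher, with 30.9 CPM in OPC-like cells, against 4.73 CPM in matched cells, and against screened cells 0 of 5 were higher. The median log2 ratio of the neuron list was 0.88 over matched and 0.76 over screened cells. Map2 had 424 CPM in OPC-like cells, against 226 CPM in matched cells. A UMI of any neuron-list gene was found in 62.8% (59.0 to 66.5) of OPC-like cells, against 39.1% (36.5 to 41.8) of matched cells, with most UMIs of the list from Map2. Stmn2 and Neurod1, genes of young neurons, had 1 UMI each in OPC-like cells. The part of neurons or doublets in this was not tested.

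Division genes outside the rule, 18 of them measured, were lower in 8 cases against matched cells and in 0 against screened cells, where their median log2 ratio was -0.02. Prc1, a midzone microtubule gene, had 18.4 CPM in OPC-like cells, 297 CPM in matched cells and 21.2 CPM in screened cells. Screened cells meet the same limit on division genes as OPC-like cells. Among 13 brakes and D cyclins, the cell cycle inhibitor gene Cdkn2a was lower, with 28.4 CPM in OPC-like cells, against 74.4 CPM in matched cells. Ccnd1, a cyclin gene induced by growth factors, had 86.1 CPM in OPC-like cells, against 42.1 CPM in matched cells, and Ccnd2 had 103 CPM in OPC-like cells, against 154 CPM in matched cells, and neither passed against matched or screened cells. Against screened cells 2 of the 13 were lower, Cdkn2a and the inhibitor gene Cdkn2c, and Btg2, an antiproliferative gene, was higher, with 101 CPM in OPC-like cells and 44.1 CPM in screened cells. Of 14 S phase genes 1 was lower against matched cells and 0 against screened cells, and of 9 immediate early genes 0 passed against matched cells and 1, again Btg2, was higher against screened cells. A UMI of the immediate early list was found in 54.1% (50.1 to 57.9) of OPC-like cells, 41.0% (38.3 to 43.7) of matched cells and 43.2% (39.3 to 47.1) of screened cells. Markers of microglia, endothelial cells, pericytes and fibroblasts were at or near 0. Microglia genes had 0 UMIs in 653 OPC-like cells, which allows a share of up to 0.459% of cells with a UMI (3 counts of the total; the exact 95% upper bound is 0.563%). The 8 endothelial and pericyte genes summed to 0.836 CPM in OPC-like cells and 1.72 CPM in matched cells, and the 8 fibroblast genes to 1.67 CPM and 5.16 CPM. The 8 Schwann and neural crest genes summed to 29.2 CPM and 18.5 CPM, mostly from Pmp22, with Foxd3, Erbb3 and Ngfr among those at 0. Of 13 inhibitory neuroblast genes 2 were measured, and Sp8, a transcription factor gene, was lower, with 10.03 CPM in OPC-like cells, against 36.5 CPM in matched cells.

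**Figure D2:**
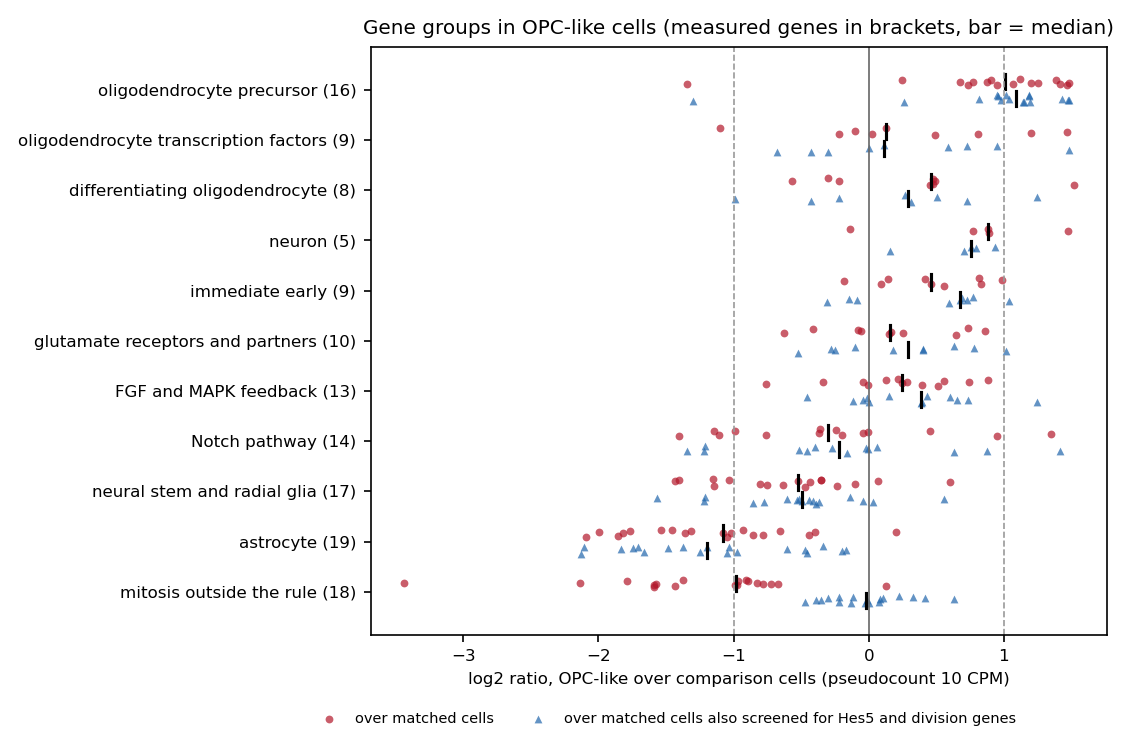
Log2 ratio of each measured gene of 11 lists in OPC-like cells over matched cells (red circles) and over screened cells (blue triangles), with the list's median as a black bar and dashed lines at the size rule of 1. Precursor genes lie mostly right of 0 with medians of 1.01 and 1.09, astrocyte genes lie left of it, apart from S100b over matched cells, with medians of -1.08 and -1.20, and division genes outside the rule move to a median of -0.02 over screened cells.

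Levels changed in steps with the number of marker UMIs. This was read in NSC cells with 0 Hes5 UMIs and at most 1 division UMI, of which 5023 had 0 marker UMIs, 1235 had 1, 399 had 2, 147 had 3 and 107 had 4 or more. The cells with 1 marker UMI are those just outside the threshold and the cells with 2 those just inside. Apoe had 5204, 2482, 1782, 1090.2 and 1567 CPM in this order. Mt3 had 2391, 1099, 865, 516 and 574 CPM, and Sparcl1 had 479.6, 183, 99.4, 36.3 and 96.95 CPM. In CPM the largest step of these genes was between 0 and 1 marker UMI, below the threshold, while for Sparcl1 the step from 2 to 3 was larger by fold. Apoe and Sparcl1 were higher again in cells with 4 or more than in cells with 3. Ppp1r14b had 1812, 3109.6, 3790.0, 3801 and 3727 CPM, and thus stayed level from 2 UMIs on. Olig1 had 527, 726, 875, 1065 and 1637 CPM, higher at each step, with intervals that meet at 2 and 3. Sox6 had 59.999, 85.6, 139, 185 and 136 CPM, and Dll3 had 25.1, 51.5, 67.8, 72.7 and 109 CPM, with overlapping intervals from 2 UMIs on. Cells with 1 marker UMI thus lay between the 2 ends for each of these genes. Cells with 4 or more marker UMIs were deeper, with a median of 2059 UMIs, against 1307 in cells with 0, and the part of depth was not tested.

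**Figure D3:**
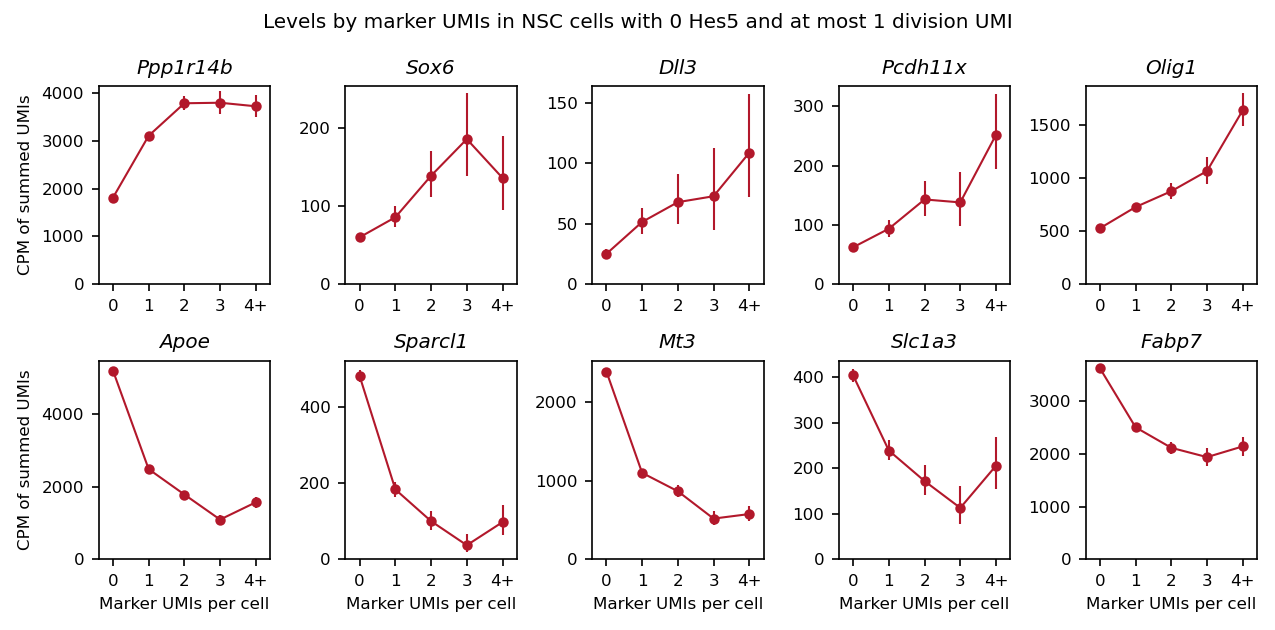
CPM of summed UMIs with exact 95% counting intervals for 10 genes, by the number of UMIs of the 4 marker genes in a cell, among NSC cells with 0 Hes5 UMIs and at most 1 division UMI. Between 0 and 2 marker UMIs the upper genes are higher and the lower genes lower, with Apoe at 5204 CPM in cells with 0 and 1782 CPM in cells with 2, and from 2 UMIs on several genes level off or turn.

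OPC-like cells were not alike, and they differed by which marker they held. The 134 cells with Pdgfra had a median of 1599 UMIs, the 354 with Sox10 or Lhfpl3 and no Pdgfra 1535, and the 165 with Olig2 only 1601. Malat1 took 32.8%, 31.7% and 25.96% of their UMIs, and its part was not tested. Among all measured genes, 203 of 8538 were higher (2.38%) and 725 lower (8.49%) in the cells with Pdgfra against matched cells, 92 higher (1.08%) and 293 lower (3.43%) in the middle group, and 124 higher (1.45%) and 165 lower (1.93%) in the Olig2-only cells. The smaller groups have larger counting error. Of 16 precursor genes 11 were higher in the cells with Pdgfra (median log2 ratio 1.36), 10 in the middle group (1.11) and 3 in the Olig2-only cells (0.21). Of 19 astrocyte genes 16, 14 and 5 were lower, with medians of -1.67, -1.43 and -0.74. Of 17 neural stem and radial glia genes 9, 8 and 0 were lower, with medians of -1.07, -0.90 and -0.15. Of 5 neuron genes 0, 3 and 1 were higher, with medians of 0.62, 1.02 and 0.62. Of 2 myelin genes 0, 0 and 2 were higher, and the list summed to 203, 178 and 422 CPM, the last with an interval of 355 to 498, against 173 CPM in matched cells.

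Several single genes showed the order of the precursor and astrocyte lists. Apoe had 702 CPM (599 to 817) in cells with Pdgfra, 1164 CPM (1081 to 1251) in the middle group and 2983 CPM (2799.7 to 3175) in Olig2-only cells. It was 4.25-fold lower (95% interval 3.60 to 5.04) in cells with Pdgfra than in Olig2-only cells. Slc1a3 had 54.98 CPM in cells with Pdgfra and 308 CPM in Olig2-only cells, 5.60-fold lower (95% interval 3.13 to 10.9). Vim, an intermediate filament gene of radial glia, had 173 and 766 CPM, 4.42-fold lower (95% interval 3.17 to 6.30). Pla2g7 had 38.1 and 492 CPM, 12.9-fold lower (95% interval 6.64 to 28.8), and Notch2 had 123 and 383 CPM. In the other direction, Gria2 had 300.3 CPM in cells with Pdgfra and 115 CPM in Olig2-only cells, 2.62-fold higher (95% interval 1.74 to 3.99). Calcrl had 135 and 36.2 CPM, 3.74-fold higher (95% interval 1.87 to 7.97), and Ppp1r14b had 4576 and 2847 CPM, 1.61-fold higher (95% interval 1.47 to 1.76). C1ql1 had 50.7 CPM (26.2 to 88.6) in cells with Pdgfra and 3.02 CPM (0.0764 to 16.8) in Olig2-only cells. Some genes of the lineage went the other way. Olig1 had 926 CPM (808 to 1057) in cells with Pdgfra and 1267 CPM (1148 to 1394) in Olig2-only cells. Cnp had 152 CPM (107 to 211) and 365 CPM (303 to 436), and Sox8 had 118 and 202 CPM. Cspg4 was highest in the middle group, with 46.1 CPM (30.9 to 66.2), against 12.7 CPM (2.62 to 37.1) in cells with Pdgfra and 9.05 CPM (1.87 to 26.4) in Olig2-only cells. These groups were split by the rule's own genes, and the named genes here were chosen after their values were seen. Without the Olig2-only cells, 42 genes were higher and 156 lower than in matched cells, against 27 and 97 with them, an alternative added after seeing the data.

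Cells meeting the rule were commonest in NSC at equal depth. With each cell thinned to 1000 UMIs and shallower cells left out, 335 of 7688 NSC cells met it (4.36%, 3.91 to 4.84), 296 of 13991 MIM-Astrocytes cells (2.12%, 1.88 to 2.37) and 1 of 9467 Astrocyte cells (0.0106%, 2.70e-04 to 0.0588). Thinning left out 1457, 973 and 351 cells. As deposited, 653 (7.14%), 782 (5.23%) and 13 (0.132%) cells met it, from libraries whose depth differs. The markers that made the rule up differed between the libraries. At 1000 UMIs Pdgfra was held by 1.85% of NSC cells (1.56 to 2.17), 0.150% of MIM-Astrocytes cells (0.0929 to 0.229) and 0.0106% of Astrocyte cells. Sox10 was held by 1.57% (1.31 to 1.88) and 0.0214% (0.00442 to 0.0626), and by 0 of 9467 Astrocyte cells, which allows up to 0.0317% (3 counts of the total; exact upper bound 0.0390%). Lhfpl3 was held by 6.98% (6.43 to 7.58), 4.50% (4.16 to 4.85) and 0.180% (0.105 to 0.287), and Olig2 by 10.95% (10.3 to 11.7), 8.45% (7.99 to 8.92) and 0.338% (0.231 to 0.477). Olig1 did not follow this order, with 35.4% (34.4 to 36.5) in NSC, 41.0% (40.2 to 41.8) in MIM-Astrocytes and 9.68% (9.09 to 10.3) in Astrocyte. The part of free RNA in the marker shares of NSC was not tested.

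**Figure D4:**
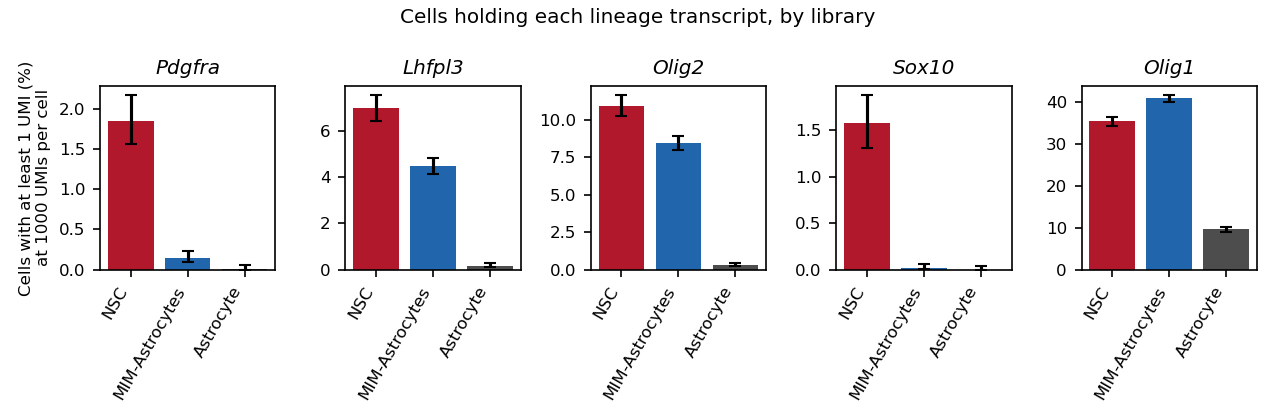
Share of cells with at least 1 UMI of each of the 4 marker genes and Olig1 after thinning every cell to 1000 UMIs, in NSC, MIM-Astrocytes and Astrocyte, with exact 95% binomial intervals. Pdgfra and Sox10 stand at 1.85% and 1.57% in NSC and near 0 elsewhere, while Lhfpl3, Olig2 and Olig1 are also found in MIM-Astrocytes.

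In whole-library levels, Pdgfra had 20.01 CPM in NSC, 0.805 CPM in MIM-Astrocytes and 0.158 CPM in Astrocyte, and Sox10 had 208, 3 and 0 UMIs. Gpr17 had 9.39 CPM in NSC, 1.12 CPM in MIM-Astrocytes and 0 CPM in Astrocyte, and Cspg4 had 12.9 CPM in NSC, 1.77 CPM in MIM-Astrocytes and 0.692 CPM in Astrocyte. Not every precursor-list gene had this order. C1ql1 had 6.33 CPM in NSC, 2.61 CPM in MIM-Astrocytes and 107 CPM in Astrocyte, and Ppfibp1, a liprin gene, had 6.60 CPM in NSC, 6.07 CPM in MIM-Astrocytes and 50.2 CPM in Astrocyte.

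The 782 MIM-Astrocytes cells that met the rule were chosen by Olig2 and Lhfpl3. Olig2 was held by 76.1% (72.9 to 79.0) and Lhfpl3 by 62.3% (58.8 to 65.7), but Pdgfra by 2.94% (1.87 to 4.38) and Sox10 by 0.256% (0.0310 to 0.921), against 67.5%, 63.4%, 20.5% and 16.4% of the NSC cells. Against 1564 depth-matched MIM-Astrocytes cells without marker UMIs, 14 of 2528 genes were higher (0.554%) and 33 lower (1.31%), and against screened cells 7 of 2463 were higher (0.284%) and 8 lower (0.325%). All 26 genes named in NSC lay on the same side of 0 in MIM-Astrocytes, but most by less. The share of all genes on the same side is not given here. Their median log2 ratio was 0.88 for the 13 higher and -0.70 for the 13 lower genes. By the log2 ratio alone, 5 of 13 and 0 of 13 reached 1 in size. Of these 5, Ppp1r16b and Midn were under the 50 CPM level, with 41.9 and 39.9 CPM in rule-meeting cells and less in matched cells. Ppp1r14b had 4953 CPM in rule-meeting MIM-Astrocytes cells, against 2328 CPM in their matched cells, and Dll3 had 61.6 CPM in rule-meeting MIM-Astrocytes cells, against 18.9 CPM in their matched cells. Pcdh11x and Midn had log2 ratios of 1.20 and 1.10, and Ppp1r16b one of 1.76 from 83 and 21 UMIs. Apoe had 10055 CPM in rule-meeting MIM-Astrocytes cells, against 16913 CPM in their matched cells, and Mt3 had 7229 CPM in rule-meeting MIM-Astrocytes cells, against 10271 CPM in their matched cells. Sparcl1 and Thrsp passed only against screened cells, with log2 ratios of -1.09 and -1.08. Calcrl and Rnase1 were near absent, with 3 UMIs each in the rule-meeting cells and 4 and 13 in the matched cells. Their side of 0 thus says little. With 1 library each, whether the libraries differ in these ratios was not tested, and a difference in culture, in the markers held and in depth cannot be told apart.

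**Figure D5:**
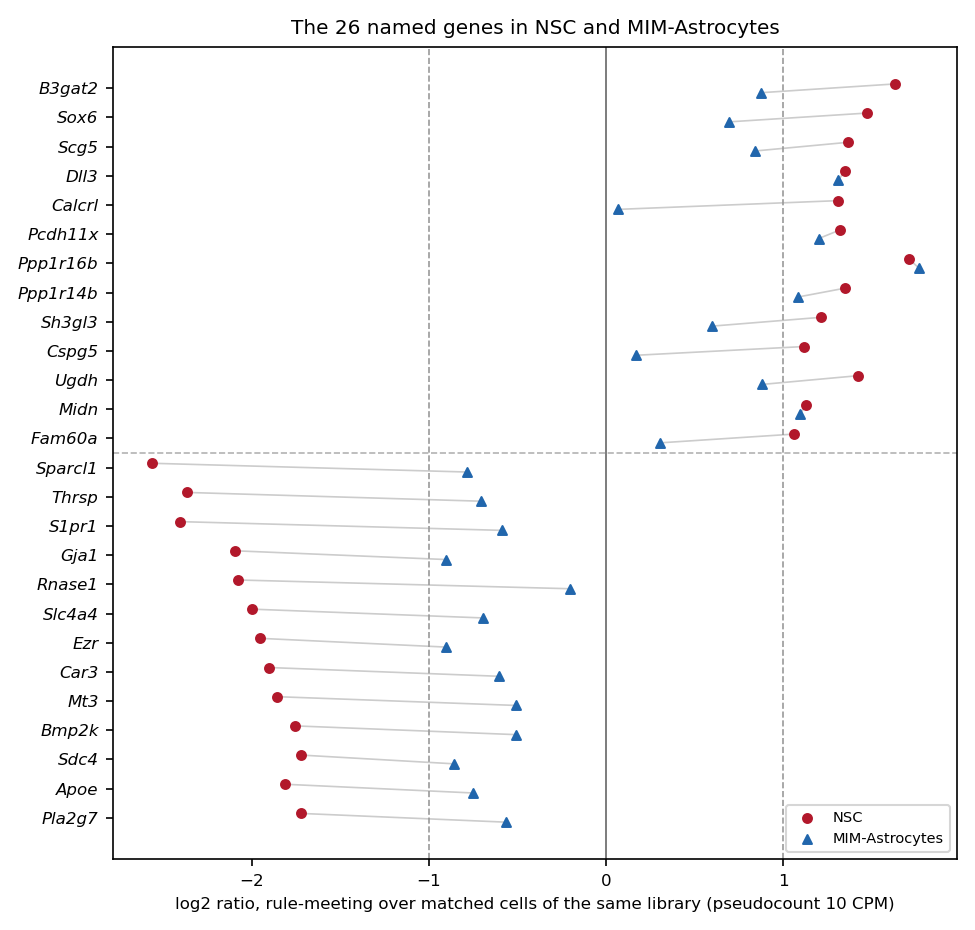
Log2 ratios of the 26 named genes in rule-meeting over depth-matched cells, within NSC (red circles) and within MIM-Astrocytes (blue triangles), with dashed vertical lines at the size rule of 1. All 26 pairs lie on the same side of 0, and the MIM-Astrocytes medians are 0.88 and -0.70. Calcrl and Rnase1 rest on 3 UMIs each in rule-meeting MIM-Astrocytes cells.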

How the data were processed

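The deposited files hold raw UMI counts, whole numbers for 31053 genes in each of 3 libraries. Per the submitters' processing notes the authors used Cell Ranger 3.0.2, Seurat 3.1.1 and mm10, and the role of Seurat is not given in the sources used here. No barcode in the files has under 500 UMIs, by a filter that the labels do not describe. Cells with at least 200 genes and at most 20% mitochondrial UMIs were kept, which removed 12 NSC barcodes.

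Comparison cells were drawn at random (seed 1) by bins of 0.05 in log10 UMIs per cell, 2 per OPC-like cell for matched cells and 1 for screened cells. Some bins ran out, so the sets were 10 and 9 cells short. UMIs were summed over cells and scaled to CPM. Log2 ratios used a pseudocount of 10 CPM, so they understate the change of low genes, and folds are ratios of CPM without it. Intervals were exact at 95% (Poisson, binomial, or conditional for a ratio). PCR duplicates are removed by UMIs, and the intervals cover counting error only. Shares were compared after thinning to 1000 UMIs.

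The cells, the 28 gene lists outside the rule and the tests were chosen with earlier results of these data known. Named genes were the 13 higher and 13 lower genes with the largest log2 ratio, by the smaller size of the 2 comparisons, among genes past the size and level rules against both matched and screened cells. Left out were the 13 rule genes, mitochondrial, ribosomal protein and haemoglobin genes, Xist, Tsix and genes of the Y chromosome or with a copy there, and clone-like names (CT025619.1 was dropped). Other genes are examples from the lists, chosen after their values were seen, and some list genes are not reported here.

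The calls were tested on simulated data. Alternatives changed the comparison cells, cell filters, rule, depth, scaling (TMM from edgeR 4.0.16 in R 4.3.3), pseudocount and level. Doublet scores came from Scrublet in scanpy 1.11.5. Sums and intervals used scipy 1.17.1 and numpy 2.4.6 with pandas 2.3.3 under Python 3.11.15, and plots matplotlib 3.10.9.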

Additional observations from a re-analysis of the deposited data

Results flagged for a closer look

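Of the 83 genes called against both sets of comparison cells in NSC, Phyhipl was the 1 that lay on the other side of 0 in MIM-Astrocytes against matched cells. It had 67.7 CPM in OPC-like cells and 163 CPM in matched NSC cells, a log2 ratio of -1.15. In MIM-Astrocytes it had 123 CPM in rule-meeting cells and 104 CPM in matched cells, a log2 ratio of 0.23, and the ratio over screened cells was near 0. Against screened MIM-Astrocytes cells 68 of the 70 lower genes kept their direction, and Wnt5a, a Wnt ligand gene, was the other exception. Wnt5a had a log2 ratio of 0.19 over screened and -0.01 over matched MIM-Astrocytes cells, against -1.02 over matched NSC cells. With 1 library each, the difference was not tested.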

How the results depend on the processing

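Against 27 higher and 97 lower genes, leaving Malat1 out of the totals gave 54 higher, a pseudocount of 1 CPM 46 higher, 20 CPM as the level 54 and 147, and 100 CPM 14 and 58. Thinning to 500 UMIs per cell gave 57 and 157. A rule of 3 or more marker UMIs gave 56 higher, no condition on Hes5 64 lower, and leaving out the Olig2-only cells 42 and 156. Genes tested numbered 2604 in the main setting, 3387 without Malat1, 5148 at 20 CPM and 1373 at 100 CPM. In every other setting they numbered 2579 to 2920. The cause of these shifts was not tested, except that a lower level and totals without Malat1 test more genes. The other 12 settings, TMM and a second draw among them, gave 19 to 39 higher and 82 to 144 lower genes. The 26 named genes kept their direction in 20 settings. The higher ones were past 1 in 251 of 260 values (0.77 to 2.10), and the lower ones in 260 of 260 (-3.41 to -1.25). The values against screened cells are among these and were past 1 by the choice of the named genes. Those at the 20 CPM and 100 CPM levels repeat the main values, since the level does not enter the ratio. The limit of 10% mitochondrial UMIs gave the same counts of 27 and 97 as the main setting. Many other settings used the same OPC-like cells, so these values are not independent of the choice.

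The share meeting the rule moved with depth. In NSC it was 4.36% at 1000 UMIs, 1.36% at 500, 8.11% at 2000 and 7.14% as deposited. In MIM-Astrocytes it was 2.12%, 0.708%, 1.75% and 5.23%, and in Astrocyte 0.0106% at 1000 UMIs and 0.132% as deposited. At 2000 UMIs 7530 NSC and 3610 MIM-Astrocytes cells were left out as too shallow, so the set of cells changed too. With 2 of the 4 markers required at 1000 UMIs the shares were 2.45%, 0.908% and 0%. The named genes lay on the same side of 0 in MIM-Astrocytes for 26 of 26 under both alternatives, with Calcrl and Rnase1 near absent there.

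No paired analysis was possible because each group is 1 library. With a median of 1550 UMIs in OPC-like cells, genes of few UMIs have wide intervals, and a small difference in them was not detectable at this depth.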

Other observations

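Because the series concerns one-carbon metabolites, genes of that metabolism were also read in the OPC-like cells. Of 18 measured genes of the one-carbon, methionine and polyamine list 0 were higher or lower against matched cells, with a median log2 ratio of -0.33, and against screened cells 0 passed, with a median of -0.08. Srm, the spermidine synthase gene, had 52.6 CPM in OPC-like cells, against 22.8 CPM in matched cells, and Sms, the spermine synthase gene, had 169.6 CPM in OPC-like cells, against 104 CPM in matched cells. Odc1, whose product makes putrescine, had 57.6 CPM in OPC-like cells, against 50.3 CPM in matched cells. Of the serine and glycine genes, Phgdh had 134 CPM in OPC-like cells, against 244 CPM in matched cells, and Gldc, a glycine cleavage gene, had 13.4 CPM in OPC-like cells, against 28.8 CPM in matched cells. These genes were picked after their values were seen, and none passed the size rule.

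Of 12 measured cholesterol synthesis genes 0 passed against either set. Sqle, which encodes squalene epoxidase, had 25.1 CPM in OPC-like cells, against 10.7 CPM in matched cells, and Sc5d had 43.4 CPM in OPC-like cells, against 74.4 CPM in matched cells. Interferon response genes had 15 UMIs in all OPC-like cells and 45 in matched cells over 15 genes, with none measured. Of 7 measured ion channel genes Kcnk2, a potassium channel gene, was lower, with 25.9 CPM in OPC-like cells, against 80.4 CPM in matched cells.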
